A study of Homo sapiens with 6 samples.

Results

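Long noncoding RNAs (long transcripts that encode no protein) differ in where they act: some stay in the nucleus and others work in the cytoplasm. Here 8 of them, MALAT1, NEAT1, KCNQ1OT1, MIAT, TUG1, NORAD, GAS5 and H19, were followed in MDA-MB-231, a human cell line derived from breast cancer. They were chosen by name, 1 row each among the 58051 genes listed. Wild-type cells had been stained with FITC-labelled recombinant human FABP4, a fatty acid carrier, and parted by flow cytometry into FABP4 binding and FABP4 non-binding cells, with 3 libraries per group. The labels name no treatment beyond the sorting, and no unsorted or unstained sample was analysed here. Total RNA was depleted of ribosomal RNA, fragmented and randomly primed. The values are TPM (transcripts scaled to a fixed total), a unit meant to allow for gene length. Which lengths were used, and how reads shared between genes were assigned, is unknown. Levels, ranks and ratios of different genes below are therefore those of the listed TPM, and their comparability between genes was not tested. The number of reads behind the values is unknown. Whether replicates are separate cultures is not stated in the labels. The p-values then describe the spread between these libraries alone, and part of it may be technical.

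By textbook knowledge, MALAT1 is held in nuclear speckles, bodies rich in splicing factors. The long form of NEAT1 is the scaffold of paraspeckles, bodies that hold RNA-binding proteins such as NONO and SFPQ. KCNQ1OT1 is an antisense RNA that silences imprinted genes on the paternal chromosome, and MIAT forms nuclear domains of its own. These 4 are called nuclear below. TUG1 is found in both compartments and was kept apart. NORAD binds and limits the Pumilio proteins, which destabilise messenger RNAs. GAS5 hosts small nucleolar RNAs in its introns, and its spliced RNA is exported, attached to ribosomes and broken down by nonsense-mediated decay. H19 is an imprinted RNA of the embryo that is mostly cytoplasmic. NORAD, GAS5 and H19 are called cytoplasmic below.

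The 8 RNAs differ in form. In GENCODE release 29 (GRCh38, the same assembly as the hg38 named by the submitters) the longest transcripts of MALAT1, NEAT1, KCNQ1OT1 and NORAD have 1 exon each, with 8708, 22743, 91667 and 5339 bases. The longest TUG1 transcript has 3 exons, those of MIAT and H19 have 5 each and that of GAS5 has 8. MALAT1 and the long form of NEAT1 lack an ordinary poly(A) tail and end in a triple helix built from U-rich and A-rich stretches. The 2 ends are shown because these neighbouring genes share this unusual form, while their levels are set against each other below. Each is 100 bases of the RNA's strand, written as DNA, and capitals mark the longest stretch that the NEAT1 end shares with MALAT1 (16 bases) and the last 11 bases of NEAT1, which MALAT1 also holds.
NEAT1, chr11:65445441-65445540, plus strand: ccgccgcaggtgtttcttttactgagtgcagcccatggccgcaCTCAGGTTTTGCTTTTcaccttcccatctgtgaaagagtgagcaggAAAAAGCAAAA
MALAT1, chr11:65506017-65506116, plus strand: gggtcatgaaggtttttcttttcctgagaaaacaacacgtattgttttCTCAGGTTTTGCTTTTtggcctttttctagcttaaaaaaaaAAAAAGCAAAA
The NEAT1 stretch closes the annotated transcript, and the MALAT1 transcript runs on for 353 bases.

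NORAD carries many copies of the Pumilio recognition element, TGTANATA in DNA letters, searched on the RNA's strand only. Its 5339 bases held 15 matches: 10 read TGTATATA, 4 read TGTAAATA and 1 read TGTACATA. That is 2.81 matches per kb, against 0.268 in TUG1 (2 matches), 0.264 in NEAT1 (6) and 0.0982 in KCNQ1OT1 (9), and none in MALAT1, MIAT, GAS5 or H19. Among the longest transcripts of 440 long noncoding genes with 4000 to 7000 bases, 35.7% held a match and 3, NORAD among them, held 15 or more. The 4 sites below were picked from the 15, and all have CTG just before TGTATATA. So do the sites at bases 761 and 1442, not shown. The TGTATATA sites at bases 2039, 2639, 2648 and 3284 have other bases there, as do the TGTAAATA and TGTACATA sites. CTG therefore does not mark all TGTATATA sites. Each is given in 30 bases of the minus strand of chromosome 20 with the match in capitals.
NORAD site at base 1140, chr20:36049803-36049832: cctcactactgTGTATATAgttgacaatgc
NORAD site at base 2972, chr20:36047971-36048000: caaccctactgTGTATATAgcggacaaact
NORAD site at base 3275, chr20:36047668-36047697: ttactgtgctgTGTATATAgtgtatataag
NORAD site at base 3593, chr20:36047350-36047379: caatgctactgTGTATATAatggaaaactt

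GAS5 belongs to the RNAs whose first bases are a C and a run of pyrimidines, the start that ties translation-related transcripts to growth signals. The first 30 bases of GAS5 are set beside those of SNHG6 and SNHG19, the 2 snoRNA host RNAs with the smallest p-values below, with the opening run of C and T in capitals.
GAS5: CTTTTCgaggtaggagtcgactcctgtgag
SNHG6: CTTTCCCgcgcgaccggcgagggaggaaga
SNHG19: CTTTTCggggtcgagtccgagggggaagag
The GAS5 start was shared by 6 of its 29 annotated transcripts, the most common one. Each gene was read by a single start, the one most of its annotated transcripts shared. Among equally common starts the first in alphabetical order was taken, which puts A before C and can pass over a start with C. By this rule 2.24% of 14994 long noncoding genes in GENCODE opened with a C in such a run of at least 5. The starts so read for the other 7 members did not. For NEAT1 and TUG1 that start belonged to 1 of 8 and 1 of 20 transcripts, and their other starts were not examined.

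NORAD and TUG1, which were both higher in the binding libraries, are transcribed from promoters that RefSeq (GRCh38.p14) lists, as are MALAT1, MIAT, GAS5 and H19. Each promoter runs from 250 bases before to 50 after the start, and those of NORAD and TUG1 are shown with the matches to CACGTGAC, an E-box with 2 more bases, in capitals. The motif was picked after the sequences were seen and was searched on both strands. In TUG1 its 2 matches, 1 per strand, overlap.
NORAD promoter, chr20:36050911-36051210, minus strand: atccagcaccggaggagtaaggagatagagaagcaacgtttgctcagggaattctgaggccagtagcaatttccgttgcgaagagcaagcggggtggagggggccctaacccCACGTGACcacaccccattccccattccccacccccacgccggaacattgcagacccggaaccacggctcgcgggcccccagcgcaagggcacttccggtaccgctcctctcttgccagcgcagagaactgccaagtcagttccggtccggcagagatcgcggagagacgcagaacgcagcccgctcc
TUG1 promoter, chr22:30969015-30969314, plus strand: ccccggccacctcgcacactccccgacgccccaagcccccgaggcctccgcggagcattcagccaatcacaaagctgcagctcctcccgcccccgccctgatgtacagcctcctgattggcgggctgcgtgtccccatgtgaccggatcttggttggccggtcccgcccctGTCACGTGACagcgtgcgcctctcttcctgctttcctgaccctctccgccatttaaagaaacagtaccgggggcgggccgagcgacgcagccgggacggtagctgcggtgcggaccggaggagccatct
Of 35116 RefSeq promoters of 300 bases, 2.40% held CACGTGAC on either strand, and 7.26% held the core CACGTG, which includes all of these matches. The listed promoters of MALAT1, MIAT, GAS5 and H19 held neither. That of GAS5 (chr1:173868996-173869295, minus strand) lies wholly upstream of the GENCODE gene, which begins at 173868882. It therefore does not cover the GAS5 start shown above.

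The libraries themselves differed between the groups. Mitochondrial genome transcripts took 9.99% to 11.2% of TPM in the binding and 2.98% to 3.38% in the non-binding libraries, and long noncoding genes took 0.757% to 1.08% and 0.562% to 0.5999%. Pseudogenes took 12.2%, 18.5% and 18.0% in binding replicates 1 to 3, the first standing apart, and 25.4% to 28.6% in the non-binding libraries. Of 10 epidermal keratinocyte markers, 7 were lower in the binding libraries and none higher, and their summed level was 1621 to 2892 TPM in binding and 3689 to 5214 TPM in non-binding libraries. Of 8 mesenchymal markers, CD44, AXL, CAV1, LOX and TGFBI were higher (5 of 8), and the 8 had sums of 1714 to 1995 and 1263 to 1282 TPM. Of all tested genes, 7.12% were lower and 19.6% higher. Without non-binding replicate 3 neither marker list kept a call, where 64 genes were called in all. Leukocyte markers summed to 20.7 to 36.9 and 22.9 to 31.4 TPM, fibroblast markers to 23.3 to 60.7 and 32.8 to 59.8, adipocyte markers to 8.78 to 15.5 and 7.33 to 17.0 with ADIPOQ and LEP at 0, and endothelial markers to 1.23 to 3.13 and 1.85 to 3.75. Of these last 4 lists 4 of 6, 5 of 6, 1 of 6 and 0 of 4 genes were tested, and none of the tested ones passed. The part of the epidermal markers and of the mitochondrial and pseudogene shares in the results below was not tested. In such bulk libraries, fewer cells of a type and less RNA per cell cannot be told apart.

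NORAD, GAS5 and TUG1 were 1.79, 1.83 and 2.01 times higher in the FABP4 binding libraries, NEAT1 was 1.51 times lower, and MALAT1 and H19 did not pass the test. MIAT and KCNQ1OT1 lay under the filter of 1 TPM in at least 3 libraries and were not tested. Of the 6 tested RNAs, 3 were thus higher and 1 lower by limma on log2(TPM + 1) at a Benjamini-Hochberg adjusted p of 0.05. Of all 15574 tested genes, 19.6% were higher and 7.12% lower (26.7% called in all), and of 1143 tested long noncoding genes 12.4% were higher and 1.57% lower. The 2 groups did not overlap for the same 4 RNAs, and for 52.2% of all tested genes. The median log2 change was 0.36 over all tested genes and 0.50 over tested long noncoding genes, so changes are also given relative to the former. After a shift of all libraries to one median (the common median below), GAS5 alone of the members was higher and NEAT1 lower, where 6.18% of all genes were higher and 12.1% lower; with quantile normalization NORAD and GAS5 were higher and NEAT1 lower, where 7.69% were higher and 8.0% lower.

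**Figure D1:**
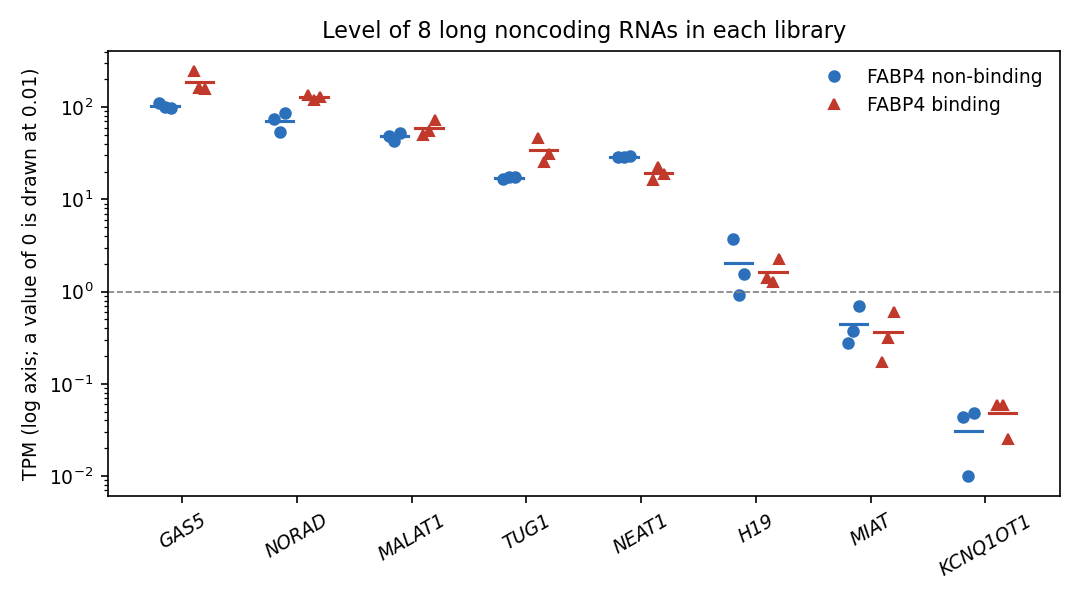
TPM of each of the 8 long noncoding RNAs (log axis) in the 3 FABP4 non-binding (circles) and 3 FABP4 binding libraries (triangles); horizontal bars are group means and the dashed line is 1 TPM. NEAT1 was 16.1 to 22.5 TPM in binding libraries and 28.9 to 29.4 in non-binding ones, while the binding libraries lay above the others for GAS5, NORAD and TUG1.

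Among long noncoding genes, the name of the group as abundant RNAs held by listed TPM for 5 of its 8 members. GAS5 ranked from 4th to 6th among 14411 long noncoding genes of the table in the 6 libraries, NORAD from 6th to 11th and MALAT1 from 9th to 21st. NEAT1 ranked from 20th to 106th and TUG1 from 26th to 53rd. H19 ranked from 300th to 1218th, MIAT from 1351st to 2665th and KCNQ1OT1 from 1878th to 2826th. Among all 58051 genes the ranks were lower. GAS5 ran from 639th to 1461st, NORAD from 1143rd to 2323rd and MALAT1 from 1958th to 3122nd. TUG1 ran from 3301st to 5609th and NEAT1 from 3668th to 6872nd. The long noncoding gene with the highest mean level was LRRC75A-AS1, at 258 TPM, followed by the snoRNA host SNHG5 at 195. Several small RNAs that cells make in large amounts, among them RN7SK, RMRP and RPPH1, were listed at 0 in all libraries, so a value of 0 is not read as absence.

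NEAT1 (ENSG00000245532, chromosome 11, 65422774 to 65445540, plus strand) had 16.1, 22.5 and 19.1 TPM in binding replicates 1 to 3 and 28.9, 29.1 and 29.4 TPM in non-binding replicates 1 to 3. The 3 non-binding libraries lay within 1 TPM of each other and above every binding library. The means were 19.2 ± 3.20 and 29.1 ± 0.270 TPM (SD, n = 3 each). On the log2 scale the difference was -0.58 with an SE of 0.17, and -0.94 once the all-gene median was subtracted (limma, Benjamini-Hochberg adjusted p = 0.0377). Among tested long noncoding genes, 6.56% had a lower log2 change. The call was lost without binding replicate 3 (adjusted p = 0.0827, limma) and without non-binding replicate 1, 2 or 3 (0.0843, 0.0950 and 0.104). It was also lost without the filter, without the intensity trend and with mitochondrial genome transcripts left out of the scaling (log2 change -0.48, adjusted p = 0.0567). The gene's short form, which ends in a poly(A) tail and makes no paraspeckles, and its long form share 1 value here.

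MALAT1 (ENSG00000251562, chromosome 11, 65497688 to 65506516, plus strand) lies 52.1 kb beyond the end of NEAT1. It had 49.8, 55.1 and 72.5 TPM in the binding and 49.1, 43.1 and 52.3 TPM in the non-binding libraries. Binding replicates 2 and 3 were above every non-binding library, but binding replicate 1 lay among them, so the groups overlapped. The means were 59.2 ± 11.9 and 48.2 ± 4.67 TPM (SD, n = 3 each). On the log2 scale the difference was 0.28 with an SE of 0.17, and -0.08 once the all-gene median was subtracted (limma, Benjamini-Hochberg adjusted p = 0.247). After a shift of the libraries to one median its log2 change turned to -0.04.

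KCNQ1OT1 and MIAT were low throughout. KCNQ1OT1 (ENSG00000269821, chromosome 11, 2608328 to 2699994, minus strand) was listed at 0.0595, 0.0585 and 0.0251 TPM in binding and 0.0436, 0 and 0.0482 TPM in non-binding libraries. It lies inside KCNQ1, which is read from the opposite strand and reached at most 1.31 TPM, and whether the counting used strand is not given in the sources used here. MIAT (ENSG00000225783, chromosome 22, 26646428 to 26676475, plus strand) had 0.1725, 0.311 and 0.5999 TPM in binding and 0.278, 0.376 and 0.691 TPM in non-binding libraries. For both RNAs the groups overlapped, and no comparison is drawn at these levels.

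TUG1 (ENSG00000253352, chromosome 22, 30969245 to 30979395, plus strand), which has been tied to chromatin repressors in the nucleus, had 46.7, 25.4 and 30.8 TPM in binding and 16.6, 17.4 and 17.3 TPM in non-binding libraries. Every binding library was above every non-binding one, and binding replicate 1 was the highest. The means were 34.3 ± 11.04 and 17.1 ± 0.449 TPM (SD, n = 3 each). On the log2 scale the difference was 0.92 with an SE of 0.22, and 0.56 once the all-gene median was subtracted (limma, Benjamini-Hochberg adjusted p = 0.0263). The call was lost under the common median (log2 change 0.60, adjusted p = 0.0543 by limma) and under quantile normalization (0.62, adjusted p = 0.0625). It was lost too without binding replicate 3 (limma adjusted p = 0.0516), without non-binding replicates 1, 2 or 3 (0.0618, 0.0729 and 0.0734) and without the filter (0.0541).

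NORAD (ENSG00000260032, chromosome 20, 36045622 to 36050960, minus strand) had 136, 120 and 128 TPM in binding and 75.0, 54.2 and 85.6 TPM in non-binding libraries. The lowest binding library was above the highest non-binding one, and non-binding replicate 2 was the lowest of all. The means were 128 ± 8.09 and 71.6 ± 16.0 TPM (SD, n = 3 each). On the log2 scale the difference was 0.85 with an SE of 0.18, and 0.50 once the all-gene median was subtracted (limma, Benjamini-Hochberg adjusted p = 0.0202). The call was lost with the common median (log2 change 0.54, adjusted p = 0.0608 by limma) and without non-binding replicate 2 or 3 (0.0585 and 0.0542).

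GAS5 (ENSG00000234741, chromosome 1, 173863900 to 173868882, minus strand) had 247, 160 and 158 TPM in binding and 112, 100.4 and 97.0 TPM in non-binding libraries. The groups did not overlap, and binding replicate 1 was far above the other two of its group. The means were 188 ± 50.7 and 103 ± 7.62 TPM (SD, n = 3 each). On the log2 scale the difference was 0.83 with an SE of 0.19, and 0.48 once the all-gene median was subtracted (limma, Benjamini-Hochberg adjusted p = 0.0229). Without binding replicate 1 the log2 change was 0.62 (limma adjusted p = 0.0138). The call was lost without non-binding replicate 2 or 3 (adjusted p = 0.0705 and 0.0725, limma) and held under the common median (log2 change 0.52, adjusted p = 0.0491) and under quantile normalization (0.81, adjusted p = 0.0323). GAS5 overlaps GAS5-AS1 and ZBTB37 on the opposite strand, which reached at most 1.15 and 1.80 TPM.

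H19 (ENSG00000130600, chromosome 11, 1995176 to 2001470, minus strand) had 1.41, 1.27 and 2.24 TPM in binding and 3.68, 0.918 and 1.56 TPM in non-binding libraries. The non-binding group held both the highest and the lowest value. The means were 1.64 ± 0.527 and 2.05 ± 1.44 TPM (SD, n = 3 each), which is -0.13 on the log2 scale (SE 0.39; limma, Benjamini-Hochberg adjusted p = 0.813). It turned to 0.23 without non-binding replicate 1.

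**Figure D2:**
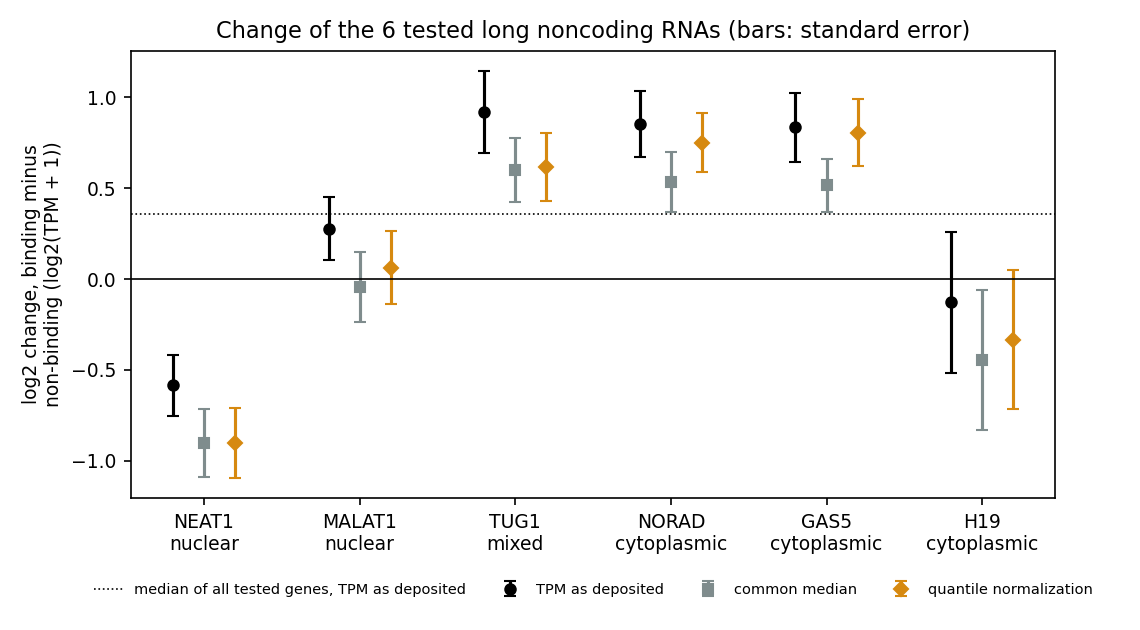
Log2 change (binding minus non-binding, on log2(TPM + 1)) of the 6 tested RNAs with its standard error, for TPM as deposited (circles), libraries shifted to a common median (squares) and quantile normalization (diamonds); the dotted line is the median of all tested genes, 0.36. NEAT1 was below 0 and TUG1, NORAD and GAS5 above 0 under all 3 scalings, while MALAT1 moved from 0.28 to -0.04 with the common median.

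The nuclear and the cytoplasmic RNAs are set side by side here as a description. The summed level of the 4 nuclear RNAs averaged 78.8 TPM in the binding and 77.8 TPM in the non-binding group (SD 13.04 and 4.96, n = 3 each), and that of the 3 cytoplasmic RNAs 318 and 177 TPM (SD 57.7 and 18.5). The nuclear RNAs made up 14.7%, 21.7% and 24.2% of the 2 sums together in binding replicates 1 to 3, and 29.2%, 31.8% and 30.9% in non-binding replicates 1 to 3. All 3 binding libraries were thus below all 3 non-binding ones in this share. MALAT1 and NEAT1 make up nearly all of the nuclear sum, and NORAD and GAS5 nearly all of the cytoplasmic one. The balance is therefore not read as a trait of either compartment. Outside the members, 6 tested nuclear-retained RNAs had a median log2 change of 0.54 (0.28 to 0.94). The 7 cytoplasmic ones had 0.64 (-0.41 to 0.94). None was called lower, where 1.57% of tested long noncoding genes were, so this is not read as a result. In the log2 means that follow, KCNQ1OT1 and MIAT count fully although their levels are under 1 TPM. The mean log2(TPM + 1) of the nuclear RNAs minus that of the cytoplasmic ones averaged -2.63 in the binding and -2.01 in the non-binding group (SD 0.258 and 0.309, n = 3 each), differing by -0.61. It was -0.998 with only MALAT1 and NEAT1 against NORAD and GAS5, and -1.19 with medians over the members. Since the RNAs were chosen with earlier results of these data known, no test of this balance is given.

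Ratios within a library do not depend on how the libraries are scaled to each other. NEAT1 had 32.4%, 40.9% and 26.3% of the MALAT1 level in binding and 58.8%, 67.4% and 56.2% in non-binding libraries. NORAD had 8.45, 5.33 and 6.70 times the NEAT1 level in binding and 2.60, 1.86 and 2.91 times in non-binding libraries. TUG1 was 2.89, 1.13 and 1.62 times NEAT1 in binding libraries and 0.575, 0.599 and 0.588 times in non-binding ones. The order of these 2 RNAs by listed TPM was thus turned in every library of one group against the other. None of the 3 ratios overlapped between the groups. For NORAD and TUG1 against NEAT1 this follows from their levels, which moved in opposite directions without overlap. It adds nothing to the calls of these RNAs. NORAD against MALAT1 ranged from 1.76 to 2.74 in binding and from 1.26 to 1.64 in non-binding libraries. GAS5 against MALAT1 overlapped, with 2.18 to 4.95 and 1.85 to 2.33.

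**Figure D3:**
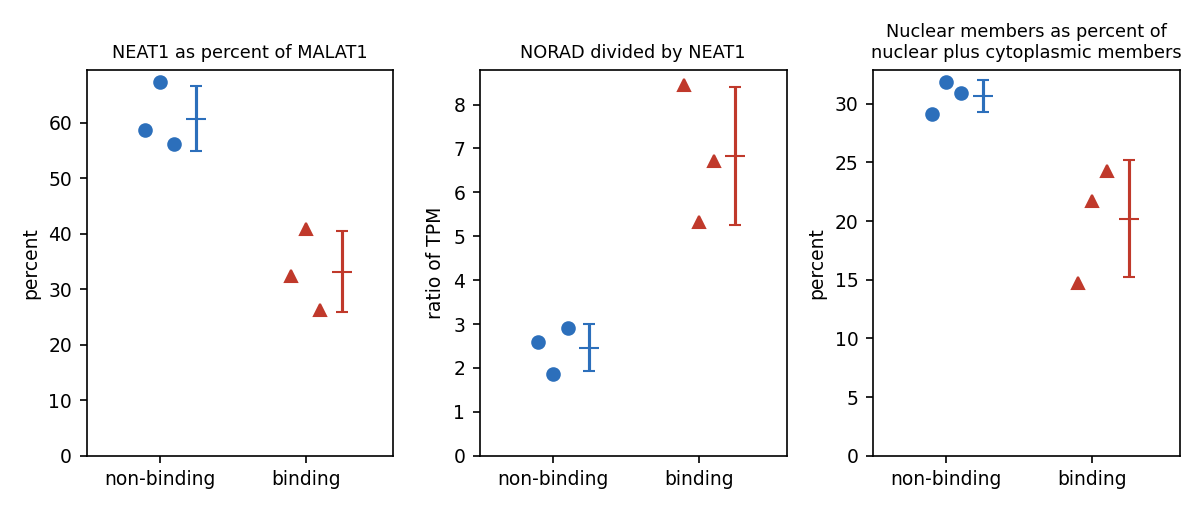
NEAT1 as a percentage of MALAT1 (left), NORAD divided by NEAT1 (middle) and the nuclear RNAs as a percentage of the nuclear and cytoplasmic RNAs together (right), all from TPM; each point is a library, circles non-binding and triangles binding, and the bars are the mean and SD of 3 libraries. NEAT1 was 56.2% to 67.4% of MALAT1 in non-binding and 26.3% to 40.9% in binding libraries, with no overlap in any panel. In the middle panel this follows from the levels of NORAD and NEAT1, which moved in opposite directions without overlap.

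In both groups the order of listed TPM ran GAS5, NORAD, MALAT1, then TUG1 and NEAT1, then H19, MIAT and KCNQ1OT1. NEAT1 came before TUG1 in the non-binding libraries and after it in the binding ones. No 2 neighbours in this order overlapped over the libraries of either group. Over the 6 libraries, Pearson's r on log2(TPM + 1) was -0.99 between NEAT1 and TUG1, -0.97 between NEAT1 and GAS5, 0.97 between TUG1 and GAS5, 0.84 between NORAD and GAS5 and -0.48 between NEAT1 and MALAT1. These points share the 2 groups and the scaling of each library, so they are given as a description. By the same measure the genes most like NEAT1 were DCUN1D1 (r = 0.997) and the pseudogene PPIAP13 (0.997), and those most like MALAT1 were EMC3-AS1 (0.995) and LY6G5B (0.983). TSEN54 and GPI were most like TUG1 (0.999 and 0.998), BID and TRAF4 most like NORAD (0.997 each) and PACSIN3 and TARS most like GAS5 (0.9995 and 0.999). With 6 points such likeness is common: 3686 of 15573 other tested genes had an r above 0.9 with GAS5, 3310 with TUG1, 1996 with NORAD, 1010 with NEAT1 and 52 with MALAT1.

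Some tested genes near the members are given for comparison. Between NEAT1 and MALAT1 lies AP000769.1, a transcribed pseudogene, which averaged 13.4 ± 0.538 TPM in the binding group and 7.48 ± 1.88 in the other (SD, n = 3 each; log2 change 0.79, limma adjusted p = 0.0342), opposite to NEAT1. FRMD8, on the other side of NEAT1, did not pass (log2 change 0.32, limma adjusted p = 0.329). LTBP3, which lies beyond MALAT1, encodes a binder of latent TGF-beta and rose to 44.5 ± 2.48 from 17.9 ± 1.85 TPM (log2 change 1.27, limma adjusted p = 0.00746). MORC2, which lies 947 bases from TUG1, averaged 20.98 ± 5.79 and 16.5 ± 2.55 TPM (limma adjusted p = 0.326). SELENOM, 125377 bases from TUG1, was higher at 18.1 ± 1.42 against 5.43 ± 1.55 TPM (limma adjusted p = 0.01002). Near NORAD, SCAND1 was higher at 79.9 ± 9.30 against 47.7 ± 6.28 TPM (limma adjusted p = 0.0202), and EPB41L1 averaged 16.9 ± 1.34 and 16.3 ± 1.95 TPM (limma adjusted p = 0.826). IGF2, the imprinted neighbour of H19, averaged 4.22 ± 1.46 and 6.79 ± 1.82 TPM (limma adjusted p = 0.156).

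GAS5 was not alone among snoRNA host RNAs. Of 16 tested hosts other than GAS5, 6 were higher in the binding libraries, none lower, and 10 did not pass, with a median log2 change of 0.72. Over all tested genes 19.6% were higher and 7.12% lower. Over tested long noncoding genes the shares were 12.4% and 1.57%, with a median of 0.50. Under the common median 2 of the hosts were higher, where 6.18% of all tested genes were. Quantile normalization gave 3, where 7.69% were. SNHG19 averaged 43.5 ± 2.76 against 13.9 ± 4.38 TPM (SD, n = 3 each), which is 1.62 on the log2 scale (limma, Benjamini-Hochberg adjusted p = 0.0101). SNHG6 averaged 160 ± 22.2 against 76.0 ± 8.72 TPM, a log2 change of 1.06 (adjusted p = 0.0115 by limma). Other nuclear-retained RNAs were mostly low: 6 of 20 were tested, 1 was higher and none lower, with a median log2 change of 0.54. That one was PVT1, a nuclear RNA from the MYC neighbourhood, at 10.1 ± 2.67 against 4.70 ± 0.765 TPM (limma adjusted p = 0.0303). Of 7 other cytoplasmic RNAs tested, 1 was higher and none lower, with a median log2 change of 0.64: CYTOR, at 48.6 ± 22.1 against 23.5 ± 1.15 TPM (limma adjusted p = 0.0419). A single higher gene in each of these 2 lists is near the 12.4% over tested long noncoding genes, so neither list is read as set apart. Neither of these single calls held under either of the other scalings.

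The proteins of paraspeckles, the bodies that NEAT1 builds, were lower more often than higher. Of 24 tested, 8 were lower, 1 was higher and 15 did not pass, with a median log2 change of -0.41 against 0.36 over all genes. Of all tested genes 7.12% were lower and 19.6% higher. Under the common median 14 paraspeckle genes were lower and 0 higher, where 12.1% and 6.18% of all tested genes were. Quantile normalization gave 8 and 0, where 8.0% and 7.69% were. HNRNPM, a splicing regulator, averaged 681 ± 78.0 against 1076 ± 29.7 TPM (SD, n = 3 each), which is -0.67 on the log2 scale (limma, Benjamini-Hochberg adjusted p = 0.0158). TARDBP, which encodes the RNA-binding protein TDP-43, averaged 96.5 ± 12.1 against 158 ± 11.96 TPM (log2 change -0.71, limma adjusted p = 0.0175). The other lower genes were HNRNPK, NUDT21, CPSF6, EWSR1, RBMX and MATR3, the last listed under 2 identifiers that may share reads. NUDT21 and CPSF6 are subunits of the cleavage factor that chooses where NEAT1 is cut, and HNRNPK opposes the short form. NONO and SFPQ, the core proteins without which paraspeckles do not form, averaged 269 ± 9.32 against 344 ± 19.3 and 263 ± 32.0 against 366 ± 61.4 TPM, and did not pass (limma adjusted p = 0.0515 and 0.0655). The higher gene was CIRBP, a cold-inducible RNA-binding protein, at 68.1 ± 18.4 against 40.2 ± 7.42 TPM (limma adjusted p = 0.0439), a call lost with any 1 library left out.

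Among 20 tested nuclear speckle proteins and MALAT1 partners, 4 were lower, none higher and 16 did not pass, with a median log2 change of -0.23. Under the common median 9 were lower, and under quantile normalization 3. The shares of all tested genes called lower were 7.12%, and 12.1% and 8.0% under those scalings. SRSF1, a splicing factor that binds MALAT1, averaged 763 ± 123 against 1318 ± 58.8 TPM (log2 change -0.80, limma adjusted p = 0.0153), and PNN, a speckle protein, 199 ± 16.5 against 314 ± 16.7 TPM (log2 change -0.66, limma adjusted p = 0.0156). METTL16, which binds the MALAT1 triple helix, averaged 9.81 ± 0.798 against 7.36 ± 1.84 TPM (limma adjusted p = 0.19).

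Of 8 tested NORAD partners, 5 were lower and none higher, with a median log2 change of -0.47, where 7.12% of all tested genes were lower. Under the common median 6 were lower, where 12.1% of all tested genes were. Quantile normalization gave 3, where 8.0% were. PUM2, which encodes a Pumilio protein, averaged 202 ± 30.5 against 337 ± 21.3 TPM (log2 change -0.74, limma adjusted p = 0.0168). PABPN1, a nuclear poly(A)-binding protein, averaged 146 ± 15.8 against 232 ± 7.05 TPM (log2 change -0.67, limma adjusted p = 0.0162). KHDRBS1 and RBMX were lower too. NORAD itself, with its 15 Pumilio elements, moved the opposite way.

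**Figure D4:**
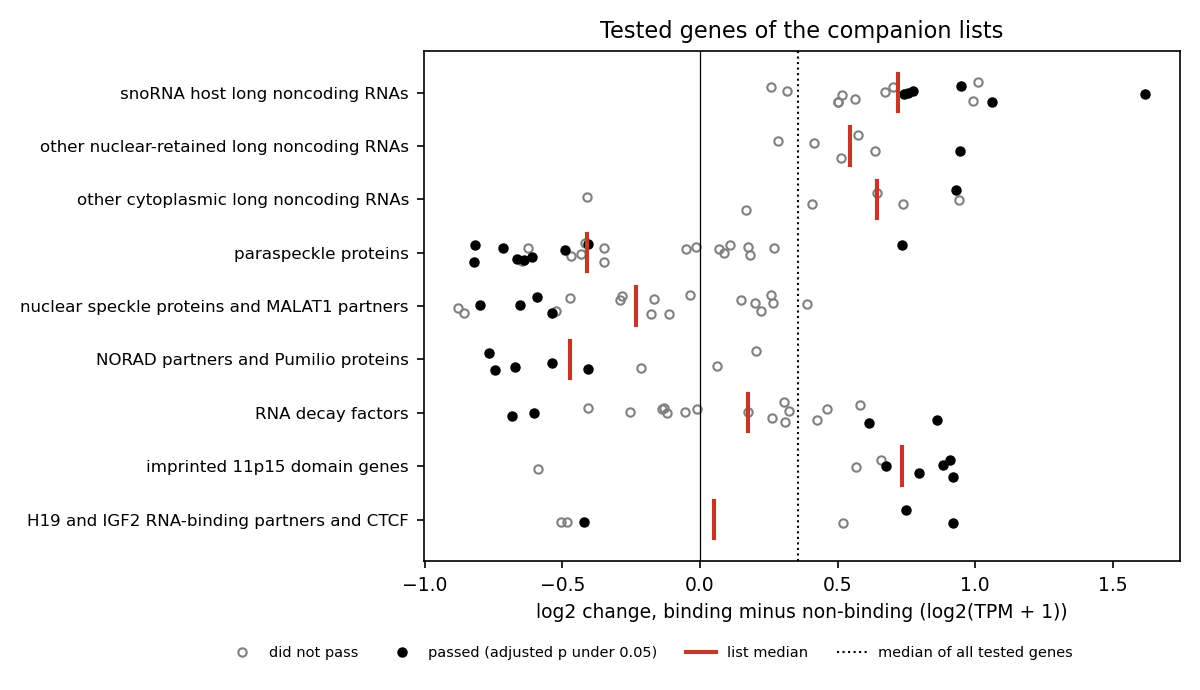
Log2 change (binding minus non-binding, on log2(TPM + 1)) of the tested genes of 9 lists tied to the members; filled points passed a Benjamini-Hochberg adjusted p of 0.05 by limma, red bars are list medians and the dotted line is the median of all tested genes. List medians were 0.72 for snoRNA hosts, -0.41 for paraspeckle proteins and -0.47 for NORAD partners, against 0.36 for all tested genes.

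Of 19 tested RNA decay factors 2 were higher and 2 lower, with a median log2 change of 0.17, where 19.6% of all tested genes were higher and 7.12% lower. Under the common median 0 were higher and 3 lower (median -0.14), and quantile normalization gave 1 and 2 (median -0.16). For this list and those that follow, 6.18% of all tested genes were higher and 12.1% lower under the common median. Under quantile normalization the shares were 7.69% and 8.0%. EIF4A3, a core protein of the exon junction complex, averaged 97.1 ± 16.8 against 62.7 ± 5.43 TPM (limma adjusted p = 0.0304) and RBM7, of the nuclear exosome targeting complex, 3.93 ± 0.576 against 1.73 ± 0.410 TPM (limma adjusted p = 0.0422). UPF2, of the nonsense-mediated decay that degrades spliced GAS5, averaged 40.9 ± 1.14 against 62.8 ± 7.45 TPM (limma adjusted p = 0.0247), and the nuclear exonuclease gene XRN2 399 ± 67.4 against 635 ± 27.0 TPM (limma adjusted p = 0.021). In the imprinted region of 11p15, which holds KCNQ1OT1 and H19, 5 genes of the 8 tested were higher and 0 lower, with a median log2 change of 0.74 (3 higher under each of the other scalings). PHLDA2, a growth-limiting imprinted gene, averaged 1055 ± 32.9 against 576 ± 81.5 TPM (limma adjusted p = 0.0125) and CD81, a tetraspanin, 66.4 ± 8.96 against 34.7 ± 4.22 TPM (limma adjusted p = 0.0142). CDKN1C, the cell cycle inhibitor that KCNQ1OT1 silences on the paternal allele, averaged 14.0 ± 2.38 against 9.11 ± 1.52 TPM and did not pass (limma adjusted p = 0.0718). Of 6 genes for CTCF, the IGF2 receptor and RNA-binding partners of H19 and IGF2, IGF2R (48.2 ± 7.07 against 24.8 ± 0.661 TPM, limma adjusted p = 0.0136) and IGF2BP2 (38.6 ± 3.17 against 22.7 ± 3.81 TPM, limma adjusted p = 0.0231) were higher. The IGF2BP2 call was lost under the common median and quantile normalization (limma adjusted p = 0.0749 and 0.0688), where this list had 1 higher and 2 lower, and 1 and 1. CTCF, the insulator protein of the H19 locus, was lower at 103 ± 7.83 against 138 ± 11.5 TPM (limma adjusted p = 0.0467). The calls of CTCF and RBM7 were lost with any 1 library left out. Of 9 structural noncoding RNAs, a further list that the plot leaves out, 3 were tested and none passed. Over the 10 lists, with RBMX counted once, 18 of 116 tested genes were higher and 19 lower, counts that fell to 3 and 0 without non-binding replicate 2, to 8 and 8 without non-binding replicate 1 and to 0 and 0 without non-binding replicate 3. Lower counts were 12 without binding replicate 3. Of all tested genes 19.6% were higher and 7.12% lower. The calls over all genes fell in the same fits. They numbered 4156 with all libraries, and 360, 1938 and 64 without non-binding replicates 2, 1 and 3.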

How the data were processed

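RNA sequencing of 6 libraries was analysed, 3 of FABP4 binding and 3 of FABP4 non-binding cells, grouped by the labels. The deposited values are TPM, as the sums of 1000000 per library show. The submitters' processing notes name hg38 as the build. Aligner, quantifier and annotation: not given in the sources used here. Since TPM hold no read numbers, no counting interval was computed, and a rise of abundant transcripts lowers the TPM of the rest.

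A gene entered the test when 3 or more libraries reached 1 TPM (15574 genes). Using R 4.3.3, limma 3.58.1 was fitted to log2(TPM + 1) with its intensity trend, and p-values were adjusted over all tested genes by Benjamini-Hochberg with a threshold of 0.05. Fold changes on this scale understate those of low genes. The scripts were tested on simulated data. Gene types, coordinates and transcripts came from GENCODE 29, which held 99.0% of the identifiers, and promoters from RefSeq. Of 196 list entries 5 had no row. A symbol with several identifiers was read from the one with the highest mean. Named genes were the members, up to 2 genes per list and direction with the smallest p, and the 2 genes most like each member with a mean of at least 10 TPM. Others (SNHG5, LRRC75A-AS1, neighbours, further list members, markers) were named after their values were seen. The members and lists were chosen with earlier results of these data known. Some neighbouring and list genes are not reported here.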

Additional observations from a re-analysis of the deposited data

How the results depend on the processing

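Depth is unknown, so no limit from it can be given for H19, MIAT and KCNQ1OT1, which rest on low TPM. The number of genes called was 1873 without the filter, 2443 with quantile normalization, 2559 without the intensity trend and 64 to 2863 with 1 library left out. NEAT1 kept its log2 change of -0.58 but lost its call without the filter (limma adjusted p = 0.0624) and without the trend (0.0592), and was at -0.48 (0.0567) without mitochondrial genome transcripts. TUG1 lost its call at 0.92 without the filter, 0.60 under the common median and 0.62 under quantile normalization, and NORAD at 0.54 with the common median. MALAT1 turned from 0.28 to -0.042 with the common median and H19 to 0.23 without non-binding replicate 1, neither past the threshold in any fit; KCNQ1OT1, not tested, moved from 0.02 to 0.19 with a pseudocount of 0.1. Over all alternatives with a test, limma adjusted p ranged from 0.0204 to 0.104 for NEAT1, 0.0122 to 0.0734 for TUG1, 0.00932 to 0.0608 for NORAD, 0.00943 to 0.0725 for GAS5 and 0.118 to 0.896 for MALAT1.

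With 1 library left out, log2 changes ranged from -0.70 to -0.47 for NEAT1, 0.12 to 0.39 for MALAT1, 0.68 to 1.11 for TUG1, 0.67 to 0.99 for NORAD, 0.62 to 0.94 for GAS5, -0.41 to 0.23 for H19, 0.0023 to 0.04 for KCNQ1OT1 and -0.21 to 0.03 for MIAT. The nuclear against cytoplasmic difference ranged from -0.78 to -0.47 in these fits. It was -0.998 with the filter of 5 TPM, -1.19 with medians over members and -0.67 with only the 6 tested members, an alternative chosen after seeing the data; all 8 members entered it without a filter. Companion genes called higher numbered 7 without the filter, 6 with the common median, 8 with quantile normalization, 31 without mitochondrial genome transcripts, 11 when scaled over nuclear protein-coding genes and the members (85 genes tested) and 0 to 14 with 1 library left out. Those called lower numbered 12, 33, 16, 15, 27 and 0 to 20 under the same settings, and 7 without the trend. The 20 other named genes kept their direction in all 295 alternative fits and lost their call in 87. H19 did not pass the filter of 5 TPM, and KCNQ1OT1 and MIAT could be tested only without a filter.

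Whether same-numbered libraries of the 2 groups came from the same sort is not stated in the labels. They had correlations of 0.03, -0.02 and 0.03 in their deviations from the group means. Such values over 3 libraries per group cannot settle whether the libraries are paired. With the replicate number as a block, 4306 genes were called, 20 companion genes were higher and 17 lower, and no call of a member changed (limma adjusted p = 0.0455 for NEAT1).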
